A study of Drosophila melanogaster with 6 samples.

Results

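Neuronal, synaptic and glial genes were described in male Drosophila melanogaster larvae with and without a functional copy of msl-2, on 6 one-colour arrays. The genes were taken by symbol from a list of 42 genes of the nervous system, and 37 of them had a probe set that the platform annotation assigns to that 1 gene, of 11983 genes measured in the same way. For a gene with several such probe sets, the brightest one on average was taken. Of the 37 genes, 9 are X-linked and 28 autosomal, counting unc-13 on chromosome 4. Syt1, Syx1A, nAChRalpha6, Eaat1 and Trh were not analysed here.

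The mutant larvae were homozygous for msl21, an allele induced with EMS, and the controls carried it over a wild-type copy, so all larvae had at least 1 mutant allele. The labels write the genotypes as yw/Yy+;msl21/msl21 and yw/Yy+;msl21/+. Larvae of both groups thus had the same marked X chromosome and a Y chromosome with a y+ copy. RNA came from whole animals in the third larval instar, 3 preparations per genotype, each a pool of 50 or more larvae. Since RNA of whole larvae was measured, fewer neurons, less RNA per neuron and more RNA from other tissues cannot be told apart. RNA of the listed genes made outside the nervous system was not separated either.

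MSL2 belongs to the MSL complex, a chromatin complex of males that is recruited to their X chromosome and raises transcription there. The comparison of the genotypes therefore asks whether X-linked genes need MSL2, and the neural genes put that question to genes of 1 organ system. Neurons communicate by releasing transmitter from vesicles at the synapse. Vesicle proteins, SNARE proteins and active-zone proteins carry out the release, calcium and potassium channels time it, and receptors on the next cell detect it. In the fly the main excitatory transmitter of the central nervous system is acetylcholine, that of the larval nerve-muscle synapse is glutamate, and GABA is inhibitory. Glia recycle glutamate and seal the nervous system off from the blood.

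Most of the neural probe sets were dim. The 11983 genes were divided into 4 level classes of 25% each by their mean log2 value. Of the 37 neural genes, 14 lay in the dimmest class (mean up to 5.43), 18 in the second (up to 6.99), 3 in the third and 2 in the brightest (from 8.44). The elav probe set, for the RNA-binding protein that marks differentiated neurons, read between 4.40 and 4.87. The probe set for repo, the transcription factor that marks glia, read between 5.52 and 6.73. Values of different probe sets are not comparable as transcript amounts, because each responds differently to its target. RMA, the procedure that made the values, compresses differences between dim probe sets, and 32 of the 37 genes lie in the 2 dimmer classes. The part of this compression in the differences below was not tested.

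**Figure D1:**
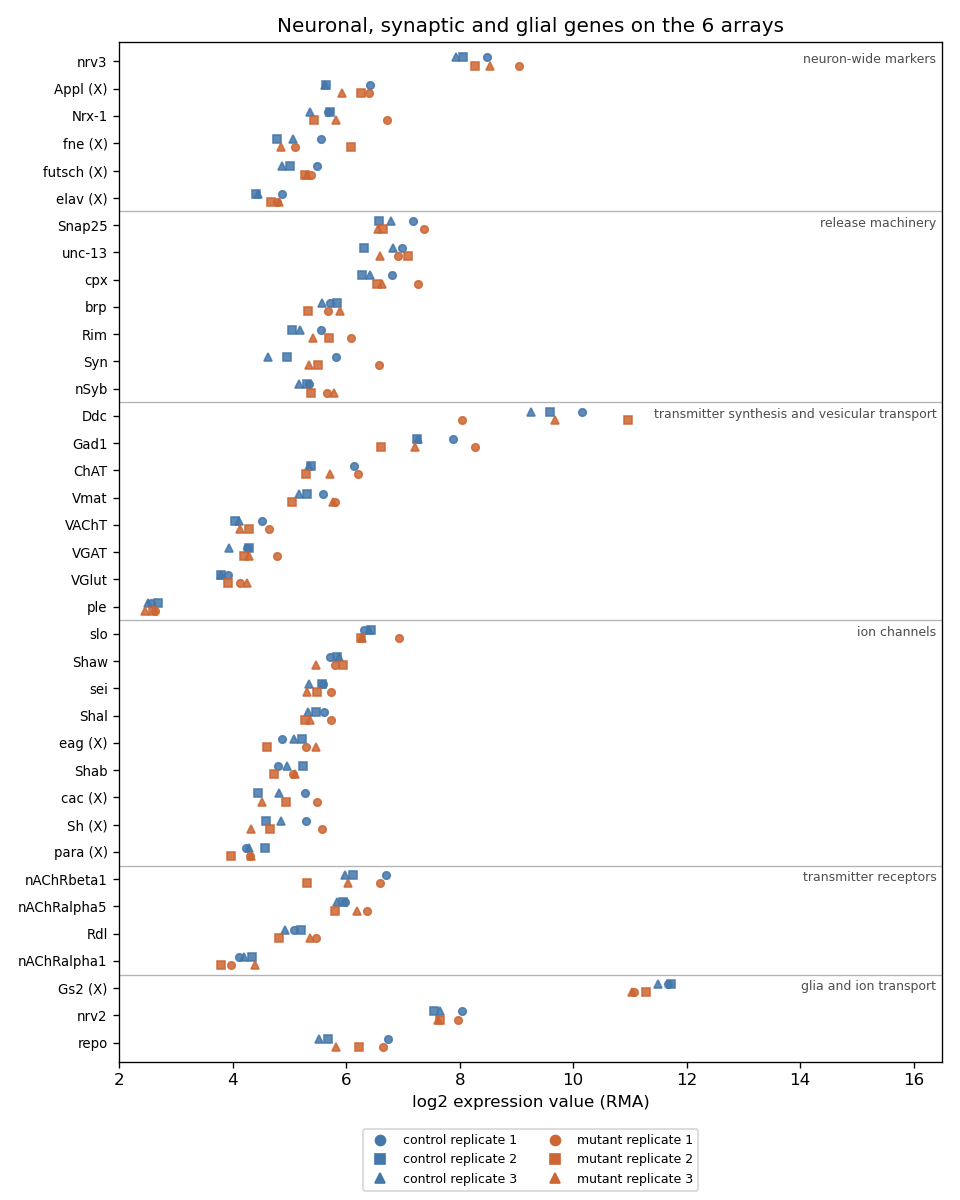
Log2 expression values (RMA, x axis) of the 37 neural genes (rows, grouped by role, X-linked genes marked) in each of the 3 control and 3 mutant arrays. Only Gs2 has all mutant points to the left of all control points, and nSyb and VGlut have all mutant points to the right.

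No neural gene passed the test. By limma with Benjamini-Hochberg adjustment over all genes, 0 of 37 had an adjusted p under 0.05, against 0.0167% of all genes lower and 0% higher (2 and 0 genes). At an unadjusted p under 0.05 there was 1 neural gene, Gs2, against 8.52% of all genes. The mutant arrays were all below the controls in 1 neural gene (Gs2), against 7.29% of all genes, and above them in 2 (nSyb and VGlut), against 6.59%. By chromosome, Gs2 was 1 of 9 X-linked neural genes, against 18.1% of all X-linked genes lower in this way, and nSyb and VGlut were 2 of 28 autosomal ones, against 7.43% of all autosomal genes higher. Without mutant replicate 2, 948 genes over the whole table were lower (7.91%) and 335 higher (2.8%), and Gs2 was then the 1 neural gene to pass. With limma's array weights 8.45% of all genes were lower and 3.68% higher, and 3 neural genes passed, Gs2 lower and nSyb and VGlut higher (limma adjusted p of 0.0201, 0.0341 and 0.0434), in a fit that gave mutant replicates 1 to 3 weights of 0.415, 0.175 and 3.15. Of the 37 differences, 24 were above 0, and their median was 0.12, against 0.00 over all genes. Standard errors lay between 0.13 and 0.69, with a median of 0.21, so differences of the size of this median could not be resolved for single genes. Of the 12 neural genes with several probe sets, 10 had sets with differences on both sides of 0.

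Gs2 was the 1 X-linked neural gene whose groups did not overlap. It encodes a glutamine synthetase, the enzyme that turns glutamate and ammonia into glutamine, and its probe set was in the brightest class. Its log2 values were 11.08, 11.28 and 11.03 across mutant replicates 1 to 3 and 11.66, 11.73 and 11.50 across control replicates 1 to 3. Every mutant array was lower than every control array, with a gap of 0.21 between the nearest arrays. The means were 11.13 ± 0.13 in the mutants and 11.63 ± 0.12 in the controls (SD, n = 3 each). The difference was -0.50 (SE 0.14, 95% interval -0.84 to -0.16, limma adjusted p = 0.445), a ratio of 0.708. Without mutant replicate 2 it was -0.58 and passed the threshold (limma adjusted p = 0.045). Without any other single array it was between -0.57 and -0.45, with limma adjusted p between 0.554 and 0.993. All X-linked genes of the brightest class (346) had a median of -0.32, and 297 of them were below 0.

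The other X-linked neural genes gave differences on both sides of 0, and in each of them the groups overlapped. Of these 8 genes, 6 were above 0 and 2 below, with limma adjusted p between 0.741 and 0.971. The neuron-wide ones are elav, its relative fne, which also encodes an RNA-binding protein of neurons, Appl, the fly member of the amyloid precursor protein family, and futsch, a microtubule-associated protein of axons and nerve terminals. In elav the values were 4.77, 4.68 and 4.81 across mutant replicates 1 to 3 and 4.87, 4.40 and 4.45 across control replicates 1 to 3. Control replicate 1 was thus above all mutants and the other 2 controls below them, and the difference was 0.18 (SE 0.17, 95% interval -0.21 to 0.58).

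Appl had 6.41, 6.26 and 5.93 across mutant replicates 1 to 3 and 6.42, 5.64 and 5.62 across control replicates 1 to 3, a difference of 0.30 (SE 0.26, 95% interval -0.31 to 0.92). In futsch the mutants read 5.37, 5.26 and 5.31 and the controls 5.48, 5.01 and 4.87, a difference of 0.19 (SE 0.19, 95% interval -0.25 to 0.64). The other futsch probe sets went the other way, at -0.094 and -0.092, and the mean over its sets gave 0.0029. In their brightest probe sets, Appl and futsch repeated the order seen in elav. Control replicate 1 was as high as any mutant, and control replicates 2 and 3 were below all of them. Without control replicate 1, elav, Appl and futsch would be among 11 of 37 neural genes with all mutants above the controls, against 13.2% of all genes. Without mutant replicate 2 there would be 9 of 37, eag among them, against 16.1%. These omissions are named after their values were seen. Leaving out any other single array gave 2 or 3 of 37, against 8.95% to 16.1%. In fne, mutant replicate 2 read 6.09 and the other 5 arrays between 4.78 and 5.55. Its difference was 0.22 (SE 0.36), and without mutant replicate 2 it was -0.15.

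The X-linked channel genes were para, the voltage-gated sodium channel, cac, the calcium channel that triggers transmitter release, and the potassium channel genes Sh and eag. In para the mutants read 4.30, 3.97 and 4.31 and the controls 4.23, 4.57 and 4.28, a difference of -0.17 (SE 0.17). The lowest value came from mutant replicate 2 and the highest from control replicate 2, and without mutant replicate 2 the difference was -0.05. Sh, which shapes the repolarisation of nerve terminals and muscle, had a difference of -0.06 (SE 0.35), cac of 0.14 (SE 0.31) and eag of 0.06 (SE 0.25). In Sh and cac replicate 1 was the highest array of each genotype (5.57 and 5.29 for Sh, 5.48 and 5.26 for cac).

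X-linked and autosomal neural genes did not separate. The median difference was 0.14 over the 9 X-linked genes (from -0.50 to 0.30) and 0.12 over the 28 autosomal ones (from -0.28 to 0.67). Over all genes the medians were -0.12 on the X (1873 genes) and 0.03 on the autosomes (10016). Computed per array, after each gene was centred on its mean, the median of X-linked minus that of autosomal neural genes was -0.20, 0.13 and -0.06 across mutant replicates 1 to 3. It was 0.20, -0.16 and 0.07 across control replicates 1 to 3. The groups overlapped, with -0.04 ± 0.16 in the mutants and 0.04 ± 0.18 in the controls (SD, n = 3 each).

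The resulting difference of -0.08 (SE 0.14) was less than 1 SE from both 0 and the -0.17 (SE 0.03) of all genes. Without Gs2, an omission chosen after its value was seen, it was -0.02 (SE 0.14). When 1 array was left out it lay between -0.17, for the omission of mutant replicate 2, and -0.02, for that of control replicate 1. The per-array median of the X-linked neural genes alone differed by 0.04 between the genotypes, by -0.04 without mutant replicate 1, -0.05 and -0.04 without control replicates 2 and 3, 0.12 without mutant replicate 3 and 0.19 without control replicate 1. With the mean over all probe sets of a gene it was -0.02. A score over genes picked with earlier results known carries no p here.

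The neural genes were also set beside all genes of the same level class. Among all genes of the dimmest class, the X-linked minus autosomal value differed between the genotypes by -0.02 (SE 0.01), and 7 of the 9 X-linked neural genes lie there. The 7 had a median difference of 0.14 (2 of 7 below 0), against -0.01 over all 512 X-linked genes of that class. The 7 autosomal neural genes of the same class had 0.12, against 0.02 over 2418 autosomal genes. In the second class, where the X-linked genes had a median of -0.10, the X-linked neural gene was Appl at 0.30. The 17 autosomal neural genes of that class had a median of 0.16, against 0.01 over 2396 autosomal genes. Neural genes of both kinds thus had positive medians in these classes.

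**Figure D2:**
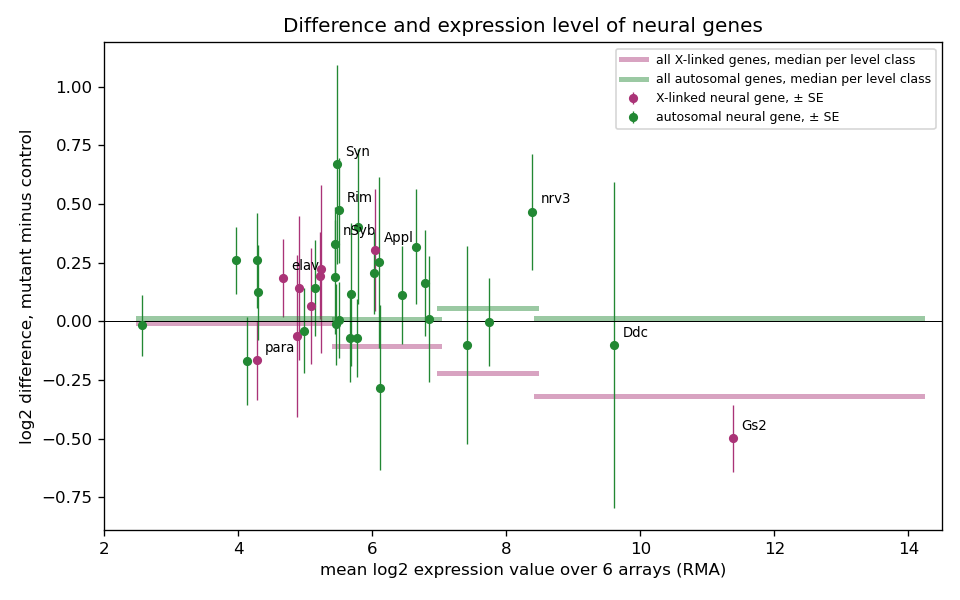
Log2 difference (mutant minus control, y axis, points with SE) against the mean log2 value over the 6 arrays (x axis) for 9 X-linked and 28 autosomal neural genes. Horizontal bars are medians of all X-linked and all autosomal genes per level class: the X-linked bars go from -0.01 in the dimmest to -0.32 in the brightest class, and Gs2 at -0.50 is the 1 X-linked neural gene in the latter.

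The genes around the X-linked neural genes had differences like those of other X-linked genes of their level. For each of the 9 genes, the 5 nearest genes of the brighter 50% on each side in gene order were taken. In these 9 neighbourhoods 79 of 90 differences (87.8%) were below 0, against 82.9% of all 776 X-linked genes of the brighter 50%, and the medians lay between -0.52 and -0.22 (elav and Appl lie 3 genes apart and share some neighbours). Among the 10 nearest genes of any level, 63 of 90 (70%) were below 0, against 69.4% of all X-linked genes, and the medians lay between -0.31 and -0.01. The brighter neighbours of elav had a median of -0.23 and those of Appl -0.35, where all 10 were below 0. The nearest genes of any level had -0.31 around both, with 8 of 10 below 0. The brighter neighbours of Gs2 had a median of -0.52, and all 10 were below 0, while its 10 nearest genes of any level had a median of -0.03, with 5 below 0. For para the brighter neighbours had -0.42 and for fne -0.22.

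**Figure D3:**
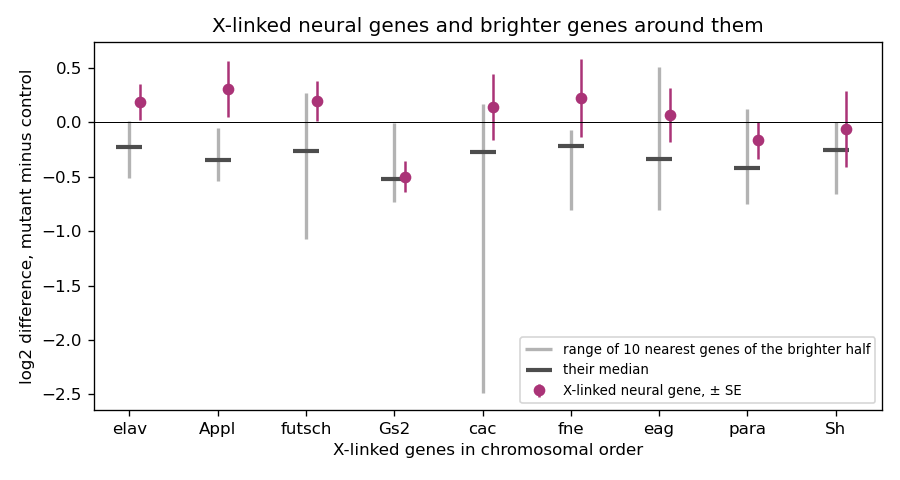
Log2 difference (mutant minus control, y axis) of the 9 X-linked neural genes in chromosomal order (points with SE) beside the range and median of the 10 nearest brighter genes. The medians lie between -0.52 and -0.22, and 6 of the 9 neural genes lie above 0.

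The autosomal neuron-wide genes and the release machinery had the largest positive differences. In nrv3, which encodes a sodium pump beta subunit of the nervous system, the mutants read 9.05, 8.27 and 8.54 and the controls 8.48, 8.06 and 7.93. Mutant replicate 1 was highest, and the groups overlapped only through control replicate 1, with a difference of 0.47 (SE 0.25, limma adjusted p = 0.614). Nrx-1, the presynaptic adhesion molecule neurexin, had 6.72 in mutant replicate 1, 5.43 and 5.81 in mutant replicates 2 and 3, and 5.36 to 5.71 in the controls. Its difference of 0.40 (SE 0.33) therefore came mostly from 1 array.

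Of the 7 genes of the release machinery, 6 were above 0, with a median of 0.32 and limma adjusted p between 0.607 and 0.994. nSyb encodes the SNARE protein of the synaptic vesicle. Its values were 5.66, 5.37 and 5.78 across mutant replicates 1 to 3 and 5.34, 5.31 and 5.17 across control replicates 1 to 3. The groups did not overlap but were only 0.03 apart, and they overlapped when each array was centred on its autosomal median. The difference was 0.33 (SE 0.16, 95% interval -0.04 to 0.70, limma adjusted p = 0.607).

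Syn, a phosphoprotein that tethers vesicles, had 6.59, 5.50 and 5.34 in the mutants and 4.96 and 4.63 in control replicates 2 and 3, but 5.82 in control replicate 1. Its difference of 0.67 (SE 0.42) was the largest among the 37 genes and had one of the largest errors. Rim, an active-zone scaffold that holds calcium channels and vesicles together, was at 0.47 (SE 0.22, limma adjusted p = 0.609), and the other 2 of its 3 probe sets at 0.13 and -0.00. cpx, which clamps the SNARE complex, had 0.32 (SE 0.25), and both of its probe sets were above 0. unc-13, the vesicle-priming factor and the 1 gene on chromosome 4, had 0.16 (SE 0.22), Snap25, the SNARE protein of the plasma membrane, 0.01 (SE 0.27), and brp, the core protein of the active zone, -0.07 (SE 0.19).

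Genes for making and packaging transmitters gave a median of 0.12 over 8 genes, 5 of them above 0. VGlut, the vesicular glutamate transporter of motor neurons, read 4.12, 3.92 and 4.25 in the mutants and 3.92, 3.80 and 3.80 in the controls. The groups were 0.004 apart, less than the SD of 0.07 within the controls, and here too they overlapped after that centring. The difference was 0.26 (SE 0.14, limma adjusted p = 0.625) at a level above only 8.98% of genes, and its other probe set had -0.01.

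The cholinergic genes ChAT, which makes acetylcholine, and VAChT, which loads it into vesicles and lies inside the ChAT gene, had 0.11 (SE 0.31) and 0.12 (SE 0.20). Gad1, the enzyme that makes GABA, read 8.28, 6.62 and 7.20 in the mutants and 7.89, 7.25 and 7.27 in the controls. Its mutants lay on both sides of the controls (difference -0.10, SE 0.42), and without mutant replicate 1 it was -0.56. VGAT, the vesicular GABA transporter, had 0.26 (SE 0.20).

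Among the aminergic genes, Ddc spread most. It encodes dopa decarboxylase, which makes dopamine and serotonin in neurons and also serves the hardening of the cuticle in the epidermis. Its values were 8.03, 10.96 and 9.69 across mutant replicates 1 to 3 and 10.15, 9.58 and 9.25 across control replicates 1 to 3. The lowest and the highest array were both mutant, and the difference was -0.10 (SE 0.69). The salivary glue genes, which are switched on late in this instar, followed the same order in the mutants, with centred medians over 9 genes of -3.95, 1.64 and 1.003 in replicates 1, 2 and 3 and 0.50, 0.20 and 1.13 across control replicates 1 to 3. In the controls the order was not the same, with Ddc highest in replicate 1 and the glue genes in replicate 3. The part of larval age in the Ddc values was not tested. ple, tyrosine hydroxylase, read between 2.45 and 2.67 in all arrays, dimmer than nearly every other gene. Vmat, the vesicular monoamine transporter, had 0.19 (SE 0.24), and its 4 probe sets ranged from -0.31 to 0.19.

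Ion channels lay close to 0. The 9 channel genes had a median difference of -0.01, from -0.17 (para) to 0.14 (cac), and 5 were below 0. Of the autosomal potassium channel genes, slo, the calcium-activated channel, had 0.11 (SE 0.21), with mutant replicate 1 at 6.94 and the other 5 arrays between 6.26 and 6.44. The voltage-gated channel genes Shal, Shab and Shaw had -0.01, -0.04 and -0.07, and sei, of the ERG family, had 0.01, with standard errors between 0.16 and 0.18. For Shal the 95% interval was -0.42 to 0.40, so a change of that size in either direction could not be told from none.

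The 4 receptor genes had a median of -0.01. Rdl, the GABA-gated chloride channel, had 0.14 (SE 0.20). The subunits of the nicotinic acetylcholine receptor were nAChRalpha5 at 0.21 (SE 0.18), nAChRalpha1 at -0.17 (SE 0.19) and nAChRbeta1 at -0.28 (SE 0.35). In nAChRbeta1 the mutants read 6.60, 5.31 and 6.03 and the controls 6.69, 6.12 and 5.97. Its difference was 0.05 without mutant replicate 2, -0.07 without control replicate 1 and -0.59 without mutant replicate 1. The other probe set of this gene had 0.01. Besides Gs2, the glial and ion transport genes were repo at 0.25 (SE 0.37) and nrv2, a sodium pump beta subunit of glia and epithelia, at -0.00 (SE 0.19).

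As a set, the neural genes varied together between arrays more than between genotypes. In mutant replicate 1, 33 of 37 genes (89.2%) were above their own mean over the 6 arrays, against 54.2% of all genes, and 18 of 37 (48.6%) had their highest value there, against 26.7% of all genes. The centred medians of the 37 genes were 0.33, -0.10 and -0.08 across mutant replicates 1 to 3 and 0.15, -0.14 and -0.17 across control replicates 1 to 3. Replicate 1 was the highest array of both genotypes in 19 of the 37 genes, against 19.5% of all genes. The ion channels did not share the peak in control replicate 1, with medians of -0.05, 0.06 and -0.03 across control replicates 1 to 3. Nor did the receptors, with -0.03, 0.03 and -0.17. The replicate numbers are not stated to mark a shared batch.

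**Figure D4:**
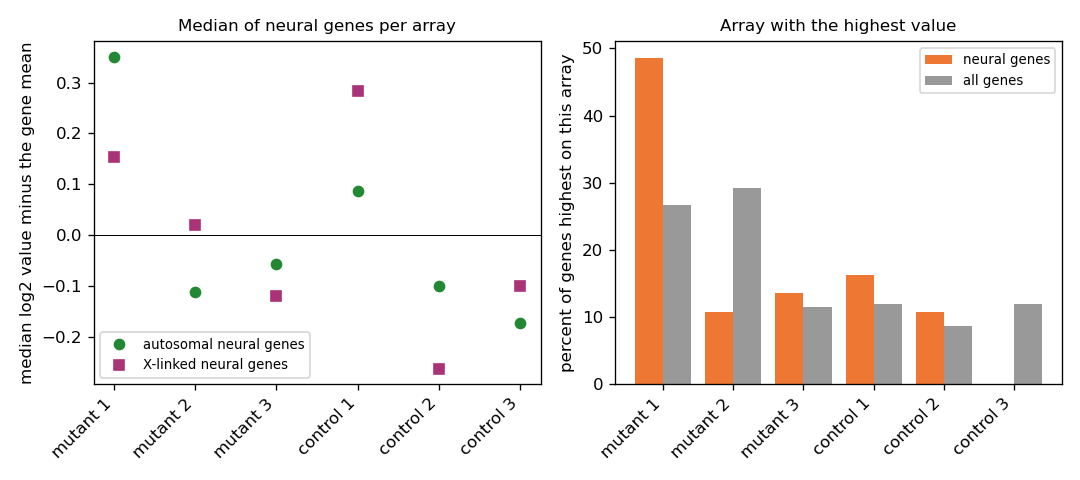
Left, centred median log2 value (y axis) of the X-linked and autosomal neural genes on each array; replicate 1 is the highest array in both genotypes, for both kinds of gene. Right, percent of genes with their highest value on each array, for the 37 neural genes and for all genes; mutant replicate 1 holds 48.6% of neural and 26.7% of all genes.

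The small positive median of the autosomal neural genes moved with single arrays. Their per-array medians differed by 0.12 between the genotypes, by 0.00 without mutant replicate 1, and by 0.21 both without mutant replicate 2 and without control replicate 1. They differed by 0.17 without mutant replicate 3, 0.08 without control replicate 2 and 0.07 without control replicate 3. Mutant replicate 1 also had the lowest medians of the salivary glue genes (-3.95) and of 3 fat body genes (-1.79, against 1.21 and 0.45 in the other mutants and -0.08 to 0.76 in the controls), both groups that come on late in larval life. The 9 muscle genes, by contrast, lay between -0.09 and -0.03 in the mutants and between -0.15 and 0.30 in the controls, with control replicate 1 the highest. A centred median over 11 testis genes was -0.53, 0.43 and -0.48 in the mutants and 0.11 to 0.34 in the controls. The difference between the 3' and 5' ends of control transcripts, a sign of RNA quality, was 2.19, 1.33 and 1.88 in the mutants and 1.80 to 1.95 in the controls. The part of these measures in the neural values was not tested. The probe set for msl-2 read 5.11 ± 0.34 in the mutants and 5.06 ± 0.17 in the controls (SD, n = 3 each), which does not check a chemically induced allele.

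A wider set of neural genes had medians nearer to 0 and a small difference for the X. Of 170 listed genes in 8 groups, 150 were measured, 22 of them X-linked, and 0 passed by limma (adjusted p between 0.444 and 0.997; 5, or 3.33%, had an unadjusted p under 0.05, against 8.52% of all genes). The median difference was -0.02 over the X-linked and 0.06 over the 128 autosomal genes. The X-linked minus autosomal value differed by -0.11 (SE 0.05) between the genotypes, with -0.00, -0.12 and -0.00 in the mutants and 0.07, 0.11 and 0.01 in the controls. Mutants were below controls in this value, by a narrow margin. With the 37 genes added, 26 X-linked genes of the dimmer 50% gave -0.05 (SE 0.05) with overlapping groups. The 5 X-linked genes of the brighter 50% (Gs2, moody, Nrg, Tomosyn and shi, named after their values were seen) gave -0.25 (SE 0.08) without overlap, and without Gs2 the other 4, against the 33 autosomal genes of the wider set, gave -0.16 (SE 0.09) with overlap. For all genes the 2 values were -0.08 (SE 0.03) and -0.31 (SE 0.05).

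By group, further genes of the release machinery had a median of 0.09 (16 of 23 above 0), ion channels 0.06 (15 of 22) and receptors -0.03 (13 of 32). Genes of transmitter synthesis and transport had 0.10 (7 of 11), adhesion, cytoskeleton and RNA-binding genes 0.09 (12 of 17), neuroblast genes 0.16 (4 of 7) and glial genes 0.10 (10 of 14). Neuropeptides and their processing enzymes had -0.12 (9 of 24 above 0), with -0.37 in mutant replicate 2 as the lowest array.

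In 10 of these 150 genes the groups did not overlap, 4 lower (2.67%) and 6 higher (4%), fewer than the 7.29% and 6.59% of all genes, and these genes are given as a description. The X-linked proneural gene ase, which marks neuroblasts, read 3.99, 4.25 and 4.05 across mutant replicates 1 to 3 and 4.56, 4.52 and 4.65 across control replicates 1 to 3. Its mutants were lower by more than the spread of either group, with a difference of -0.48 (SE 0.14, limma adjusted p = 0.444), though its probe set was in the dimmest class. NPF, a neuropeptide made in the brain and midgut, read 5.77, 5.42 and 5.50 in the mutants and 5.91, 6.11 and 5.99 in the controls, a difference of -0.44 (SE 0.15, limma adjusted p = 0.531). GluRIIB, a glutamate receptor subunit of the larval muscle, had -0.31 (SE 0.16), and GluClalpha, a glutamate-gated chloride channel, had -0.09 (SE 0.12).

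Ace, the acetylcholinesterase that ends cholinergic signalling, read 7.005, 7.31 and 6.83 across mutant replicates 1 to 3 and 6.70, 6.49 and 6.31 across control replicates 1 to 3. Its mutants were all above its controls, with a difference of 0.55 (SE 0.18, limma adjusted p = 0.51). grh, a transcription factor of neuroblasts that the epidermis also expresses, had 0.60 (SE 0.20, limma adjusted p = 0.508). stj, a calcium channel subunit that brings cac to the terminal, had 0.48 (SE 0.20). The receptor genes DopEcR and 5-HT7, for dopamine and ecdysone and for serotonin, had 0.41 (SE 0.18) and 0.35 (SE 0.16), and Proc, the neuropeptide proctolin, had 0.33 (SE 0.16).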

How the data were processed

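The authors deposited 1 log2 value per probe set and array. They made these with RMA, which corrects background, normalizes between arrays and summarizes the probes of a set, per the labels' design text. The submitters' processing notes name GCOS 1.4, and which program ran RMA is not given in the sources used here. Array medians lay between 5.88 and 6.06, and precision is limited by the 6 arrays. Of 18952 probe sets, 13647 have 1 gene symbol, 402 several, 4720 none and 183 are controls. Symbols, chromosome arms and gene order came from RefSeq (Release 6 plus ISO1 MT), where 13544 of the 13647 identifiers were found. No coordinates or sequences are printed. The 37 genes, the lists and the tests were chosen with earlier results of these data known. All 37 are named, and of the wider lists the genes without overlap, up to 8 in each direction. Mutant minus control differences were tested with limma 3.58.1 (R 4.3.3; lmFit, eBayes, two-sided, adjusted over 11983 genes, threshold 0.05). Summaries and plots used Python 3.11.15 and matplotlib 3.10.9. On simulated data with the layout of this comparison (11983 genes), 83% of genes changed by 2 log2 units and 40% of those changed by 1 were recovered, with 5 false calls. The simulated noise was independent between genes and had the same SD in both groups. Deviations shared by the genes of an array, a wider spread in the mutants and changes under 1 log2 unit were not simulated. Preparations are independent per the labels, and the p-values measure the spread between pools.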

Additional observations from a re-analysis of the deposited data

How the results depend on the processing

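Of the 12 other settings, 9 can change the size of a difference. Over these and the 37 genes, 279 of 333 single-gene differences kept their direction and their side of the threshold, 4 newly passed and 50 changed sign. In the other 3 (the replicate block, the trended prior and the brighter 50%) the difference is the same by construction, and no neural gene passed. The newly passing ones were Gs2 without mutant replicate 2 and, with array weights, Gs2, nSyb and VGlut. The 50 belong to 21 genes; none of them passed the threshold in those settings, and the causes were not tested. With the mean over all probe sets of a gene the differences were 0.0017 for Sh, -0.050 for Vmat, 0.057 for Shaw, 0.037 for brp and 0.0028 for Shab. With array weights they were -0.078 for cac, -0.081 for fne, -0.11 for Snap25, 0.11 for brp, -0.15 for sei, 0.0032 for Shab, 0.059 for nAChRalpha1 and -0.046 for slo. Leaving out each array in turn gave differences of -0.12 to 0.37 for ChAT, -0.80 to 0.66 for Ddc, -0.56 to 0.27 for Gad1, -0.42 to 0.20 for Sh and -0.14 to 0.081 for Shab. For the next genes they were -0.15 to 0.080 for Shal, -0.18 to 0.066 for Shaw, -0.25 to 0.18 for Snap25, -0.024 to 0.27 for VAChT and -0.20 to 0.086 for brp. Those of the following genes were -0.11 to 0.37 for cac, -0.11 to 0.32 for eag, -0.15 to 0.47 for fne, -0.59 to 0.051 for nAChRbeta1 and -0.12 to 0.14 for nrv2. For the remaining genes they were -0.056 to 0.038 for ple, -0.11 to 0.11 for sei, -0.11 to 0.23 for slo and -0.035 to 0.30 for unc-13. Over all genes the count past the threshold was 2; it was 0 with the brighter 50% of genes, 1 with a trended and robust prior and 1453 with array weights, and between 0 and 1283 (without mutant replicate 2) when 1 array was left out. Of the neural genes 3 passed with array weights, and 0 to 1 when 1 array was left out. Between 1 and 3 neural genes had all mutants below all controls, and between 2 and 11 above, when 1 array was left out, while 9.57% to 25.3% of all genes were below and 8.95% to 16.1% above. Above, there were 0 in the brighter 50%, a setting that leaves out nSyb and VGlut by their level. After centring on autosomal genes there was 1, which was Rim and neither nSyb nor VGlut. The shares of all genes under these settings are not given here. In the brighter 50% Gs2 is the 1 X-linked gene left, which gave -0.50 for the X-linked median and -0.62 for X-linked minus autosomal genes. With the replicate number as a block 0 genes passed. The deviations of same-numbered arrays correlated at 0.19, -0.27 and 0.11, and those of differently numbered arrays between -0.36 and 0.25. With 3 arrays per group, these values cannot decide whether same-numbered arrays shared a batch. Without Gs2, an omission chosen after seeing the data, the X-linked median was 0.10 in place of 0.04.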
